A study of Homo sapiens with 48 samples.

Results

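U2932, a human line from a diffuse large B-cell lymphoma, was studied with KLHL6 knocked out (KLHL6-KO) or intact (WT) at 3 h on OP9-DLL1, a mouse bone marrow stromal line made to express the NOTCH ligand DLL1. The comparison took the libraries whose titles give that time, 3 of KLHL6-KO and 3 of WT cells, which makes 6 of 24 coculture libraries and of 48 libraries in the series. Libraries of both genotypes at 0, 8 and 12 h show where the difference at 3 h departs from that at other times. The other 24 libraries, of U2932 with KLHL6, NOTCH2 or both knocked out or with NOTCH2 variants, were not used here. The titles name OP9-DLL1 at every time, 0 h included, and do not say from what event the hours count. No other alteration is stated for the cells, and the same stroma is named for both genotypes. The sources used here do not say how the knockout was made or whether it is 1 clone or a pool, and the only record of separate cultures is that the titles number biological replicates. The p-values therefore measure a spread between libraries, which the main fit took from all 24 coculture libraries and not from the 6 at 3 h alone. Levels are the authors' normalised counts, in which each library's gene counts were scaled by its size factor. Differences are log2(KLHL6-KO) minus log2(WT) after adding 2 to each value, with the SE of the limma coefficient, n = 3 against 3, and called means a p under 0.05 after Benjamini-Hochberg adjustment over all genes.

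KLHL6 is a BTB-Kelch protein of germinal-centre and mature B cells that brings substrates to the CUL3 ubiquitin ligase, and it is recurrently mutated in diffuse large B-cell lymphoma. The RNA decay factor roquin-2, product of RC3H2, has been described as a substrate. NOTCH receptors are cleaved after binding DLL1 or another ligand on a neighbouring cell, and the freed intracellular part switches on targets such as HES1, NRARP and DTX1 together with RBPJ. In B cells, signals from the antigen receptor and from TNF family receptors converge on MAPK and NF-kB, which drive immediate-early genes, cytokines and activation antigens within hours.

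Depth at 3 h was 11.7 to 13.8 M reads a library, and mitochondrial transcripts took 9.16% to 11.2% of reads (exact two-sided permutation p = 0.2 between genotypes, where 0.1 is the smallest p that 3 against 3 allows). All 10 B-cell markers were expressed in both groups, with MS4A1 (CD20) at 17480 to 17977 counts in WT and 16681 to 17262 in KLHL6-KO cells, and their summed counts were 79563 to 83416 and 73665 to 78218 (exact permutation p = 0.1), though none of the 10 was called. Markers of 4 other cell types were at or near 0 for most members, and the summed macrophage markers did not pass 10.1 counts in any library at 3 h. Of 10 endothelial markers, TIE1 alone was above a mean of 10 counts at 3 h. It was at 305, 332 and 271 counts in WT and 247, 262 and 266 in KLHL6-KO libraries and was not called. Of 12 T and NK markers, TRAC alone was above a mean of 10 counts at 3 h, and it was lower in KLHL6-KO cells (125, 139.9 and 145 counts against 238, 268 and 253, -0.88 ± 0.11, adjusted p = 3.6e-07), as it was at 0 h. Summed counts of 21 stroma markers were 456 to 506 in WT and 354 to 452 in KLHL6-KO libraries (exact permutation p = 0.1), and 298 to 378 and 260 to 276 at 0 h. Among them TAGLN was called (-0.65 ± 0.11, adjusted p = 1.5e-04) and lower at 0 h as well, while VIM, at 0 to 2.86 counts at 0 h, stood at 78.8, 81.9 and 72.4 in WT and 114, 71.3 and 76.1 in KLHL6-KO libraries at 3 h. DLL1 itself was at 19.2, 23.9 and 22.1 counts in WT and 26.2, 13.7 and 11 in KLHL6-KO libraries, with overlap. How much of such signal comes from reads of the mouse stroma was not tested, and in bulk RNA fewer cells of a type and less RNA per cell cannot be told apart. At 12 h, WT replicate 1 had 23.2% mitochondrial reads (10.4% and 14.8% in WT replicates 2 and 3) and stroma markers summing to 1128 counts (536 and 575). It enters the 12 h contrasts and the shared spread. Without it, 142 genes instead of 163 changed their difference between 12 and 3 h.

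KLHL6 (ENSG00000172578, chromosome 3, 183487531 to 183555689, GRCh38, GENCODE 29) was lower in the knockout but still read at 3 h. Its values were 4523, 4342 and 4436 counts in WT libraries and 2900.2, 3060.4 and 2637 in KLHL6-KO libraries. No knockout library reached the lowest WT library, and the level was 1.55-fold lower (-0.63 ± 0.12, adjusted p = 0.0031). The transcript counted over the whole gene does not show whether protein is made. At 0 h the difference was -1.17 ± 0.12, and the change of the difference by 3 h was 0.54 ± 0.18 and did not pass the threshold (adjusted p = 0.065), although it did with DESeq2 (0.04), in a fit of the compared groups alone (0.0069) and without WT 0 h replicate 3 (0.027). Against a background of 4.0% of 15032 tested genes called lower and 3.82% called higher, none of the other 10 genes of the CUL3 ligase list was called at 3 h. For KEAP1, the adaptor that controls NRF2, the difference moved from 0.36 ± 0.06 at 0 h to -0.13 ± 0.06 at 3 h, a change of -0.49 ± 0.09 (adjusted p = 5.2e-04).

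**Figure D1:**
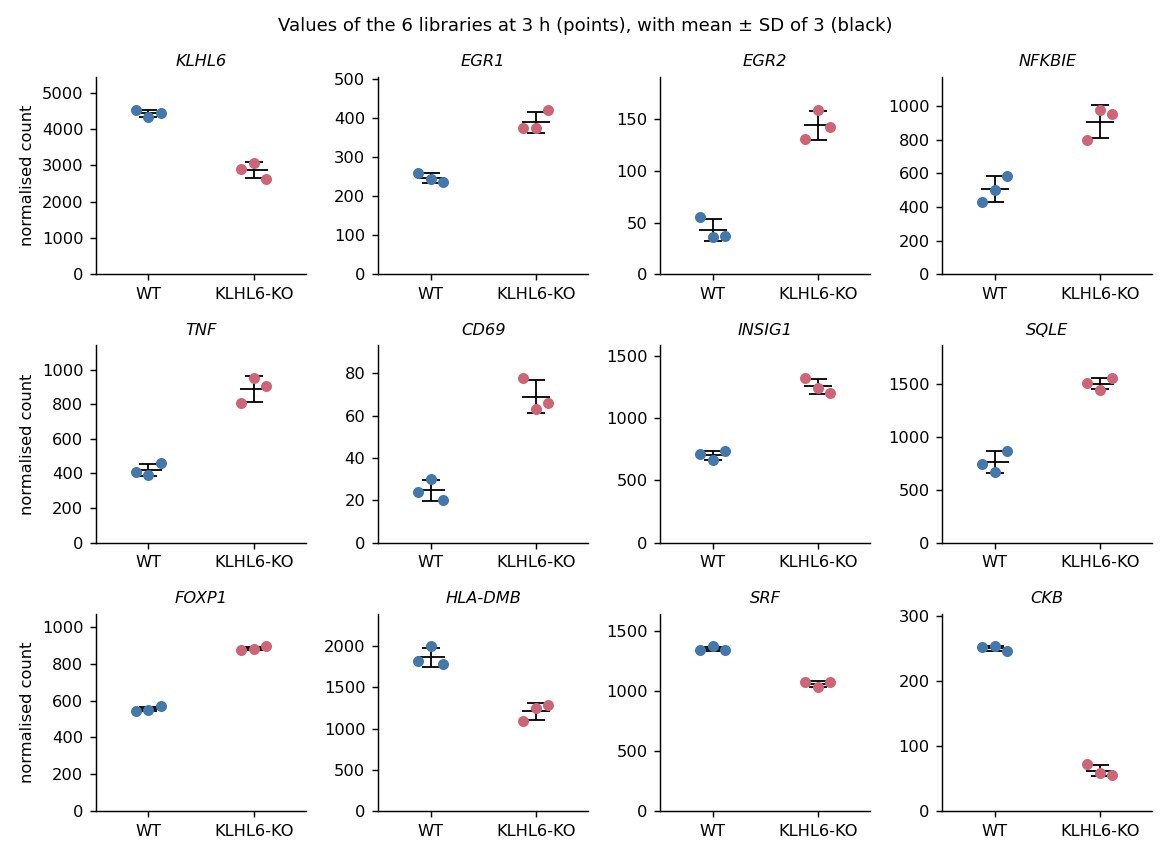
Normalised counts (linear axes from 0) of 12 genes in the 3 WT and 3 KLHL6-KO libraries at 3 h, with the mean and SD of 3 in black. The groups do not overlap in any panel: KLHL6, HLA-DMB, SRF and CKB are lower in KLHL6-KO cells, and the other genes are higher, from 1.58-fold for EGR1 to 3.3-fold for EGR2.

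Over all genes 574 were higher and 601 lower in KLHL6-KO cells at 3 h, 35 and 66 of them by at least 2-fold (0.233% and 0.439% of genes tested, of which 7.82% were called in either direction), and the median difference of all genes was -0.01. The median absolute log2 difference of the 1175 called genes was 0.37. Called genes were mostly protein-coding (1066, 9.27% of protein-coding genes tested), with 1.5% of processed pseudogenes and 4.2% of lincRNA genes called. The share called rose with level, from 3.88% of genes under a mean of 50 counts to 13.3% of those above 5000. By chromosome, from 1 to 22 and X, the share ran from 5.19% on chromosome 16 to 11.4% on chromosome 18, and all 25 mitochondrial genes tested were uncalled. Fewer genes were called with any 1 of the 6 libraries left out. There were 918, 723 and 729 without KLHL6-KO replicate 1, 2 or 3 and 683, 646 and 1036 without WT replicate 1, 2 or 3.

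**Figure D2:**
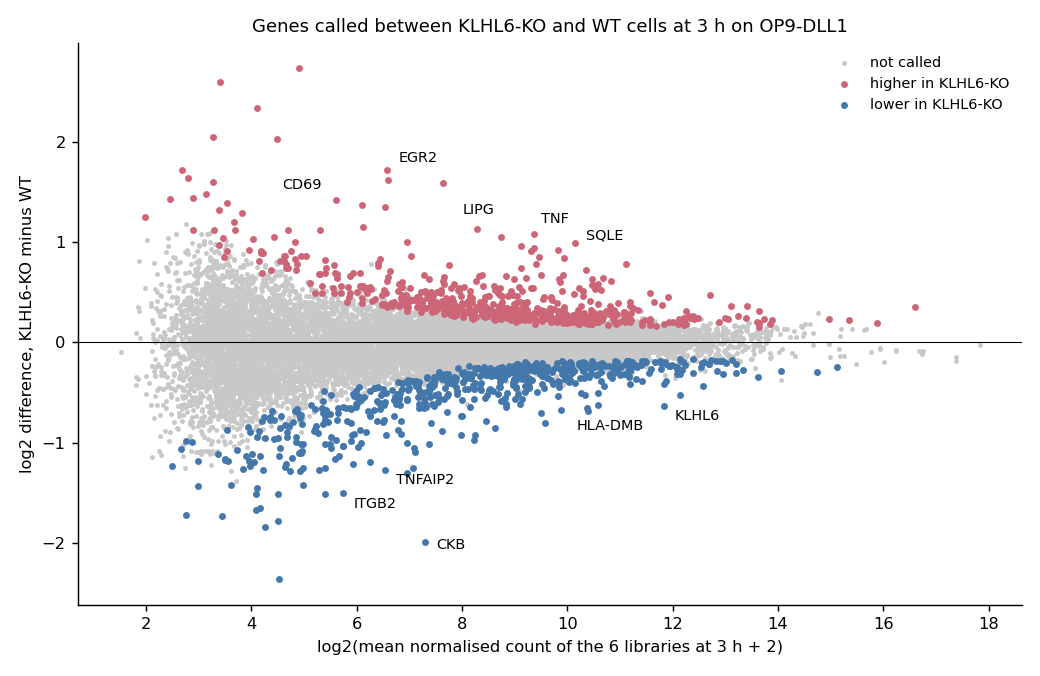
Log2 difference (KLHL6-KO minus WT at 3 h) against the log2 mean normalised count of the 6 libraries, 1 point for each of 15032 genes, with the 574 called higher in red and the 601 called lower in blue. CKB lies lowest among the labelled genes at -1.99 and EGR2 highest at 1.72; KLHL6 and HLA-DMB lie near -0.63.

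Immediate-early genes, which receptor signals switch on without new protein synthesis, split in KLHL6-KO cells: of 25 measured, 7 were higher and 5 lower (all genes: 3.82% and 4.0%), with a median difference of 0.04. The EGR zinc-finger factors led the rise. EGR2 (ENSG00000122877, chromosome 10, 62811996 to 62919900) was at 55.8, 36.3 and 37.2 counts in WT and 131, 159 and 143 in KLHL6-KO libraries. Every knockout library held more than 2-fold the highest WT value, and the mean log2 difference was 1.72 ± 0.14 (adjusted p = 2.7e-10). EGR3 rose from 35.6, 38.4 and 34.2 to 86.3, 112 and 91.7 (1.37 ± 0.18, adjusted p = 1.5e-06), again without overlap. EGR1 (ENSG00000120738, chromosome 5, 138465490 to 138469315) stood at 259.6, 243 and 235 in WT and at 374, 373 and 419.9 in KLHL6-KO libraries (0.66 ± 0.06, adjusted p = 4.3e-09). The nuclear receptor NR4A1 (0.65 ± 0.14, adjusted p = 0.0024) and the small MAF protein MAFF (0.86 ± 0.18, adjusted p = 0.0017) were higher. The AP-1 partner BATF (0.41 ± 0.10, adjusted p = 0.0085) and the RNA decay factor ZFP36 (0.37 ± 0.09, adjusted p = 0.0058) completed the rise. BATF lost its call without KLHL6-KO replicate 3 (adjusted p = 0.074) or WT replicate 2 (0.059), and ZFP36 without KLHL6-KO replicate 2 (0.075).

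The genes that fell included the AP-1 subunits JUN and FOSL2 and the factor SRF, which binds the CArG boxes of many immediate-early promoters. JUN was at 40.4, 37.3 and 40.2 counts in WT and 25.1, 13.7 and 14.7 in KLHL6-KO libraries (-1.10 ± 0.23, adjusted p = 0.0017). SRF (ENSG00000112658, chromosome 6, 43171299 to 43181507) was at 1335, 1368 and 1342 and 1069.8, 1029 and 1069 (-0.35 ± 0.06, adjusted p = 3.1e-04), tight in both groups and far from overlap. FOSL2 (-1.14 ± 0.27, adjusted p = 0.005) and the antiproliferative BTG2 (-0.25 ± 0.06, adjusted p = 0.0036) were also lower. The survival factor MCL1 was lower as well (-0.25 ± 0.06, adjusted p = 0.0044), but not without WT replicate 2 (adjusted p = 0.051). Among the MAPK feedback genes 2 of 15 were higher and 1 lower (all genes: 3.82% and 4.0%). Across the alternatives, with each library left out among them, 1 or 2 were higher and 1 or 2 lower. DUSP2, a phosphatase that acts on nuclear MAP kinases, was at 1227, 1279 and 1322 counts in WT and 1868, 2048 and 2053 in KLHL6-KO libraries (0.64 ± 0.08, adjusted p = 4.7e-06). The ETS factor ETV4 was lower (-0.50 ± 0.11, adjusted p = 0.002).

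The balance of the list at 0 h was another. At 0 h, 3 of the 25 immediate-early genes were higher and 13 lower in KLHL6-KO cells, where 13.7% and 12.5% of all genes were called, and the list median was -0.32. EGR1 was then at 5483, 5748 and 6168 counts in WT and 2396, 2278 and 2449.9 in KLHL6-KO libraries, all of them far above either group at 3 h and in the opposite order. The genotype difference in EGR1 changed by 1.94 ± 0.09 (adjusted p = 1.9e-17). The same test called a shift upward for EGR2 (1.25 ± 0.20, adjusted p = 1.2e-04) and EGR3 (1.07 ± 0.25, adjusted p = 0.0055). Both shifts were smaller than the differences at 3 h, so the order of the genotypes did not turn over for EGR2 and EGR3. The test also called an upward shift for NR4A1 (1.02 ± 0.20, adjusted p = 8.7e-04), ZFP36 (0.76 ± 0.12, adjusted p = 1.0e-04) and DUSP2 (1.27 ± 0.12, adjusted p = 3.0e-08). SRF shifted downward (-0.48 ± 0.09, adjusted p = 7.3e-04). Over the list 11 genes shifted upward and 1 downward, against 3.93% and 4.87% of all genes tested.

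EGR1 rose and SRF fell, and the 250 bases before both start sites hold CArG boxes, the motif that SRF binds, so both are shown 5′ to 3′ from RefSeq on GRCh38.p14 (EGR1 at chr5:138465229-138465478, plus strand; SRF at chr6:43171019-43171268, plus strand), with the CArG boxes in capitals.
EGR1: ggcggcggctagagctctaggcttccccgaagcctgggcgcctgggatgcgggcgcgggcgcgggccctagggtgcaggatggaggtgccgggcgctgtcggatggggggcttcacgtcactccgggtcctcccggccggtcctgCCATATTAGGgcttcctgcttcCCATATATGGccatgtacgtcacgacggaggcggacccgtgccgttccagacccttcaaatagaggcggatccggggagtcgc
SRF: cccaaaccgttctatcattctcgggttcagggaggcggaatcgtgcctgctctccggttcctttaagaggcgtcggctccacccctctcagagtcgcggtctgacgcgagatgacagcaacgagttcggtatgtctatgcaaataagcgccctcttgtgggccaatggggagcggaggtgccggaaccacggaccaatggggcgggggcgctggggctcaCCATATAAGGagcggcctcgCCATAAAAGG
Each window held 2 CArG boxes, which lie 105 to 96 and 83 to 74 bases before the start of EGR1 and 30 to 21 and 10 to 1 bases before that of SRF. Searched on both strands, 1.16% of 35116 promoter windows of this length hold a CArG box. The EGR2 window held none. Both windows shown also matched the EGR element GCGNGGGCG once (8.41% of windows), and the TNF window, looked at after its values were seen, matched it once on the opposite strand, 173 to 165 bases before the start. A match is a description of the letters and not evidence of binding here.

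NF-kB genes leaned upward: of 26 measured, 10 were higher and 1 lower in KLHL6-KO cells (all genes: 3.82% and 4.0%), with a median of 0.16 against -0.01 for all genes. The IkB family genes NFKBIE and NFKBID had the largest rises of the 10. NFKBIE (ENSG00000146232, chromosome 6, 44258166 to 44265788), which encodes IkB-epsilon, was at 432, 499.8 and 586 counts in WT and 797, 976 and 949.9 in KLHL6-KO libraries, with the lowest knockout library well above the highest WT one (0.85 ± 0.08, adjusted p = 1.1e-08). NFKBID, a nuclear IkB protein, was at 727, 777 and 713 and 1057, 1145 and 1163 (0.60 ± 0.08, adjusted p = 7.3e-07). The adhesion molecule ICAM1 (0.43 ± 0.06, adjusted p = 6.4e-06), the p100 precursor NFKB2 (0.35 ± 0.06, adjusted p = 1.0e-04) and the A20 partner TNIP1 (0.28 ± 0.05, adjusted p = 4.8e-04) followed. TNFAIP8 (0.32 ± 0.06, adjusted p = 7.9e-04) and the activation antigen CD83 (0.37 ± 0.08, adjusted p = 0.0019) were higher too. TNFAIP3, which encodes the deubiquitinase A20, was higher too (0.30 ± 0.09, adjusted p = 0.026), but not without WT replicate 1 (0.18) or KLHL6-KO replicate 2 or 3 (0.14 and 0.069), or with no filter (0.051). The caspase-8 inhibitor CFLAR (0.24 ± 0.06, adjusted p = 0.014) lost its call without KLHL6-KO replicate 1 (0.1) or WT replicate 1 or 3 (0.06 and 0.054). TRAF1 (0.22 ± 0.07, adjusted p = 0.035) kept it only when WT replicate 3 was the library left out, with adjusted p values of 0.072 to 0.24 for the others, and lost it with no filter (0.091).

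TNFAIP2 (ENSG00000185215, chromosome 14, 103123442 to 103137439) ran against the list. It was at 138, 139 and 113 counts in WT and 49.2, 52.1 and 55.9 in KLHL6-KO libraries (-1.27 ± 0.15, adjusted p = 2.1e-07), and it was lower at 0 h too (-1.16 ± 0.15), with no called change between the times (-0.11 ± 0.21, adjusted p = 0.83). For 7 members of the list and in the upward direction alone, the difference at 3 h departed from that at 0 h, among them NFKBIE (1.10 ± 0.12, adjusted p = 1.9e-07), ICAM1 (0.59 ± 0.09, adjusted p = 2.0e-05) and NFKB2 (0.47 ± 0.08, adjusted p = 3.1e-04). The others included TNFAIP3 (0.63 ± 0.12, adjusted p = 8.4e-04) and TRAF1 (0.82 ± 0.09, adjusted p = 2.6e-07). At 8 and 12 h, 9 and 11 members were higher and 2 and 1 lower, where 2.02% and 1.40% of all genes were called higher and 2.32% and 2.0% lower. Without WT replicate 1, 7 members were higher and 2 lower at 3 h. The promoter windows of NFKBID and TNFAIP2 held no match to the NF-kB consensus, which 9.96% of windows hold.

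MIR155HG (ENSG00000234883, chromosome 21, 25561909 to 25575168), the host transcript of miR-155, a microRNA induced by NF-kB and antigen receptor signals, was at 266, 294 and 262 counts in WT and 516, 546 and 653 in KLHL6-KO libraries. All knockout libraries were above all WT libraries, 2.07-fold on average (1.05 ± 0.10, adjusted p = 1.5e-08), and the difference was called at 0 h (1.05 ± 0.10) and likewise at 8 h (0.98 ± 0.10) and 12 h (1.13 ± 0.10). The mature strands it carries, from RefSeq on GRCh38.p14 chromosome 21 (plus strand), are shown with the seed, bases 2 to 8, in capitals, and mature microRNA was not measured.
hsa-miR-155-5p: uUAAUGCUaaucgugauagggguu
hsa-miR-155-3p: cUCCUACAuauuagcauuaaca
The strands lie at chr21:25573983-25574006 and chr21:25574022-25574043, and their seeds differ.

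Of 14 measured chemokines and cytokines, 7 were higher and 1 lower in KLHL6-KO cells (all genes: 3.82% and 4.0%), and the median difference was 0.53. The lower member was not called without any 1 of the 6 libraries. TNF (ENSG00000232810, chromosome 6, 31575567 to 31578336), an NF-kB target and activator at once, was at 408, 391 and 462 counts in WT and 805, 950.3 and 907 in KLHL6-KO libraries. All knockout libraries exceeded all WT libraries, 2.11-fold on average (1.08 ± 0.08, adjusted p = 3.8e-11). LTA, its neighbour on chromosome 6 that encodes lymphotoxin-alpha, was at 416, 493 and 592 and 755, 873 and 942 (0.78 ± 0.10, adjusted p = 2.0e-06). LTB, the third gene of that cluster, was higher by less (0.48 ± 0.12, adjusted p = 0.019) and lost the call without KLHL6-KO replicate 2 or 3 (0.076 and 0.086) or WT replicate 1 or 2 (0.098 and 0.078), or with no filter (0.059). At 0 h TNF and LTA were lower in KLHL6-KO cells (-0.33 ± 0.08 and -0.32 ± 0.10), and the change of the difference was called for both (1.41 ± 0.12, adjusted p = 4.0e-10 and 1.10 ± 0.14, adjusted p = 4.4e-06). The receptor TNFRSF1B, for TNF and lymphotoxin, was at 33.7, 49.8 and 40.2 counts in WT and 97.3, 109.8 and 74.3 in KLHL6-KO libraries (1.15 ± 0.17, adjusted p = 2.4e-05).

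The chemokines CCL3 and CCL4, which draw T cells and monocytes to activated B cells, were low in WT libraries. CCL3 was at 6.73, 6.22 and 7.04 counts there and at 27.3, 30.2 and 44 in KLHL6-KO libraries (2.02 ± 0.27, adjusted p = 1.6e-06), and CCL4 at 0.962, 1.04 and 3.02 and 7.65, 12.8 and 20.2 (2.04 ± 0.38, adjusted p = 4.8e-04). Their near-identical copies moved with them: CCL3L3 was at 1.92, 0 and 1.01 and 9.84, 16.5 and 22 (2.60 ± 0.36, adjusted p = 5.2e-06), and CCL4L2 at 4.81, 13.5 and 2.01 and 33.9, 54.9 and 58.7 (2.73 ± 0.43, adjusted p = 2.9e-04). Reads can be split between such copies, so the value of each gene alone is uncertain, and at these levels the added 2 pulls the difference towards 0. CCL3 was higher in KLHL6-KO cells at every time (1.31 ± 0.27 at 0 h, 1.72 ± 0.27 at 8 h and 1.59 ± 0.27 at 12 h).

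Of 24 measured surface molecules of activated B cells, 8 were higher and 1 lower at 3 h, whereas 4 were higher and 12 lower at 0 h. Over all genes 3.82% were higher and 4.0% lower at 3 h, and 13.7% and 12.5% at 0 h. CD69 (ENSG00000110848, chromosome 12, 9752486 to 9760901), an early activation antigen that retains lymphocytes in tissue, was at 24, 30.1 and 20.1 counts in WT and 77.6, 63.1 and 66 in KLHL6-KO libraries (1.42 ± 0.13, adjusted p = 1.5e-09). Its values at 0 h had been 335, 345 and 302 and 161, 202 and 211, so both genotypes lost most CD69 and their order turned over, the largest upward change of any named gene (2.19 ± 0.18, adjusted p = 4.0e-10). The hyaluronan receptor CD44 (0.36 ± 0.06, adjusted p = 9.1e-05), SLAMF7 (0.34 ± 0.07, adjusted p = 0.0019) and CD83 were higher without overlap. CD274, which encodes PD-L1, was at 56.7, 63.3 and 62.3 in WT and 104, 79.6 and 84.4 in KLHL6-KO libraries (0.53 ± 0.13, adjusted p = 0.0092), and it was lower at 0 h (-0.53 ± 0.13). The call at 3 h was lost without KLHL6-KO replicate 1 (0.08) or WT replicate 1 (0.057). The ligand of ICOS, ICOSLG, was lower (-0.39 ± 0.10, adjusted p = 0.013; without KLHL6-KO replicate 1 0.12 and without WT replicate 3 0.054). From 0 h, 14 members shifted upward and 2 downward, against 3.93% and 4.87% of all genes. The higher count at 3 h fell with any 1 of the 6 libraries left out. It ran from 4 without WT replicate 1 and 5 without KLHL6-KO replicate 2 to 7 without WT replicate 3.

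Antigen receptor signalling genes moved in both directions, 5 of 25 higher and 3 lower (all genes: 3.82% and 4.0%). The adaptor BLNK, which links SYK to phospholipase C, was at 1241, 1267 and 1111 counts in WT and 1668, 1755 and 1798 in KLHL6-KO libraries (0.53 ± 0.06, adjusted p = 1.9e-07). NFATC1, a calcium-driven factor, was higher by 0.63 ± 0.08 (adjusted p = 3.1e-07) and PIK3CD, the lymphoid PI3-kinase subunit, by 0.22 ± 0.05 (adjusted p = 0.0059). PTPN6 encodes SHP-1, a phosphatase that restrains the receptor. It was at 569, 611 and 729 in WT and 828, 895 and 877 in KLHL6-KO libraries (0.45 ± 0.07, adjusted p = 1.4e-05), whereas at 0 h it was at 1141, 1115 and 1212 and 657, 656 and 664, a change of the difference of 1.26 ± 0.09 (adjusted p = 2.9e-11). PRKCB, a protein kinase C of the receptor pathway, was lower at 1095, 1033 and 968 against 1749, 1642 and 1598 (-0.69 ± 0.08, adjusted p = 9.6e-07), with no library of either group inside the other's range. Without 1 library the lower count was 1 or 2, with 1 when KLHL6-KO replicate 2 or 3 or WT replicate 2 was left out.

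B-lineage transcription factors were higher or not called: 6 of 20 rose and none fell (all genes: 3.82% and 4.0%). FOXP1, a factor tied to the activated B-cell type of this lymphoma, was at 545, 549.6 and 569 counts in WT and 876, 881 and 894 in KLHL6-KO libraries (0.67 ± 0.07, adjusted p = 1.9e-08). Both groups were tight, and at 0 h the difference was -0.17 ± 0.07 and not called (change 0.84 ± 0.10, adjusted p = 5.1e-07). The other 5 were higher by 0.22 to 0.31 and fragile: without KLHL6-KO replicate 2 or WT replicate 1 a single factor was called, and without WT replicate 2, 3 were. IRF4, which drives plasma cell fate, was one of them (0.24 ± 0.06, adjusted p = 0.015; 0.087 without KLHL6-KO replicate 2 and 0.1 without WT replicate 1). PRDM1, the plasma cell repressor BLIMP-1, was at 55.8, 70.5 and 57.3 in WT and 99.4, 112 and 103 in KLHL6-KO libraries (0.76 ± 0.15, adjusted p = 8.5e-04), and it was among 5 genes called higher on the 15-gene plasma cell list, with 1 called lower. The lower one was the ectoenzyme CD38 (-0.29 ± 0.06, adjusted p = 0.0032), which was also the single called member of 18 germinal-centre genes. STAT3 (0.31 ± 0.06, adjusted p = 0.0016) and the kinases PIM2 (0.29 ± 0.06, adjusted p = 0.0022) and PIM3 (0.32 ± 0.07, adjusted p = 0.0024) were among 5 of 19 STAT and SOCS genes called higher, with none lower (3 without KLHL6-KO replicate 1 or WT replicate 3).

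Of 25 measured NOTCH receptors, ligands and core components none was higher at 3 h and 2 were lower, where 4.0% of all genes were. POFUT1, which adds the O-fucose that NOTCH needs to bind ligand, was at 1162, 1160.4 and 1152 counts in WT and 1049, 999 and 945 in KLHL6-KO libraries (-0.22 ± 0.06, adjusted p = 0.017). NOTCH1 was at 183, 200.1 and 217 and 156, 154 and 135 (-0.43 ± 0.13, adjusted p = 0.034). Both groups stood apart for both genes, but the calls were lost when single libraries were left out, POFUT1 without KLHL6-KO replicate 2 or 3 (0.056 and 0.12) or WT replicate 1 or 2 (0.06 and 0.062), or with no filter (0.07). NOTCH1 lost its call without KLHL6-KO replicate 2 or 3 (0.07 and 0.16) or WT replicate 2 or 3 (0.1 and 0.13), or with no filter (0.064). NOTCH2, the main NOTCH receptor of mature B cells, was at 520.2, 493 and 523 counts in WT and 481, 381 and 324 in KLHL6-KO libraries. The ranges did not overlap, yet the knockout libraries spread widely and the difference was not called (-0.39 ± 0.18, adjusted p = 0.2), though it was in a fit of the 6 libraries alone (0.039).

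Of 12 measured NOTCH targets, 2 were higher and 1 lower at 3 h (all genes: 3.82% and 4.0%), with a median of 0.16. SEMA7A (ENSG00000138623, chromosome 15, 74409289 to 74433958), a membrane-anchored semaphorin, was at 313, 372 and 444 counts in WT and 653, 739.9 and 801 in KLHL6-KO libraries (0.96 ± 0.10, adjusted p = 2.2e-08), and had been lower in KLHL6-KO cells at 0 h (change 1.24 ± 0.14, adjusted p = 3.9e-07). MYC was higher (0.38 ± 0.11, adjusted p = 0.027) with all libraries, but not without KLHL6-KO replicate 2 or 3 (0.14 and 0.074) or WT replicate 1 or 2 (0.13 and 0.059), or with no filter (0.056). HES7, at 2.88, 11.4 and 6.03 and 2.19, 2.74 and 0.917 counts, was low in all libraries, and its difference (-1.06 ± 0.34, adjusted p = 0.049) was not called by edgeR (0.097), by DESeq2 (0.099), with the compared groups alone (0.11), with no filter (0.079) or with a pseudocount of 8 (0.12). Nor was it called without any 1 library other than WT replicate 1 (0.062 to 0.32). The direct targets HES1, NRARP and DTX1 were not called. HES1 was at 300.01, 302 and 366 in WT and 373, 383 and 352 in KLHL6-KO libraries (0.20 ± 0.10, adjusted p = 0.24). NRARP stood at 18.3, 14.5 and 10.1 and 18.6, 15.5 and 20.2 (0.33 ± 0.27, adjusted p = 0.51). DTX1 was at 4764, 4448 and 4736 and 4648, 4466 and 4407 (-0.04 ± 0.05, adjusted p = 0.64), and all 3 genes had groups that overlapped. Each of them was called at 0 h, HES1 and NRARP lower and DTX1 higher in KLHL6-KO cells. The change between times was called for NRARP (1.54 ± 0.38, adjusted p = 0.0084) and DTX1 (-0.34 ± 0.07, adjusted p = 0.0011). For HES1 that change (0.49 ± 0.14, adjusted p = 0.024) was lost without KLHL6-KO 0 h replicate 1 (0.085), KLHL6-KO 3 h replicate 2 (0.064), WT 0 h replicate 3 (0.053) or WT 3 h replicate 1 or 2 (0.08 and 0.069).

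Among 19 RNA decay factors, which set the half-life of cytokine and immediate-early transcripts, 3 were higher and 1 lower (all genes: 3.82% and 4.0%). ZC3H12D, a regnase family protein, was at 878, 809.9 and 824 counts in WT and 684, 599 and 597 in KLHL6-KO libraries (-0.42 ± 0.08, adjusted p = 3.9e-04), while at 0 h the difference was 0.11 ± 0.08 and not called (change -0.53 ± 0.11, adjusted p = 0.0016). Its relative ZC3H12A, regnase-1, was higher (0.30 ± 0.07, adjusted p = 0.0096), as was HNRNPD, which binds AU-rich elements (0.20 ± 0.05, adjusted p = 0.015). Neither of these calls, nor that of ZFP36, held without KLHL6-KO replicate 2 (ZC3H12A 0.11, HNRNPD 0.13, ZFP36 0.075), and ZC3H12A also lost its call without WT replicate 1 (0.11) and HNRNPD without WT replicate 2 (0.14). RC3H2 was at 1157, 1154 and 979 in WT and 1165, 1061 and 956 in KLHL6-KO libraries, overlapping and not called (-0.05 ± 0.13, adjusted p = 0.87), which bears on its transcript and not on its protein.

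Sterol synthesis had the highest share of members called of the 32 lists: 19 of 24 measured genes were higher in KLHL6-KO cells, none was lower (all genes: 3.82% and 4.0%), and the median difference was 0.55. These genes are switched on together by SREBP2 when cell cholesterol is low. SQLE, squalene epoxidase, was at 747, 668 and 869.9 counts in WT and 1509, 1446 and 1553 in KLHL6-KO libraries (0.99 ± 0.07, adjusted p = 5.2e-12), with every knockout library above every WT library. HMGCS1, the first committed step of the mevalonate pathway, was at 638, 592 and 645 and 1309, 1142 and 1102 (0.92 ± 0.08, adjusted p = 1.3e-10). The squalene synthase FDFT1 (0.78 ± 0.06, adjusted p = 3.8e-11) and the feedback protein INSIG1 (0.84 ± 0.07, adjusted p = 6.8e-11) were higher as well. The groups of values did not overlap for any of the 19 called genes. The same was so for 1162 of all 1175 called genes, so it adds little to the calls. The count was 18 or 19 under every alternative and with any 1 library left out.

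The sterol genes were higher at 0 and 3 h and not at 8 or 12 h. At 0 h 19 genes were higher as well (median 0.45), where 13.7% of all genes were. At 8 h none was higher and 2 were lower, and at 12 h none was called (medians -0.01 and -0.12). The change of the difference was called upward at 3 h against 8 h for 14 genes and against 12 h for 17, where 0.705% and 0.685% of all genes were. SQLE changed by 1.07 ± 0.10, adjusted p = 6.5e-09 against 8 h and by 1.10 ± 0.10, adjusted p = 5.3e-09 against 12 h. For INSIG1 the changes were 1.14 ± 0.09, adjusted p = 1.4e-09 and 0.88 ± 0.09, adjusted p = 1.5e-07. Fatty acid genes moved less, 5 of 16 higher and 1 lower (all genes at 3 h: 3.82% and 4.0%): the desaturase SCD was at 1076, 1028 and 1049 in WT and 1563, 1395 and 1387 in KLHL6-KO libraries (0.46 ± 0.08, adjusted p = 1.3e-04), while FADS1, which desaturates polyunsaturated chains, was lower (-0.54 ± 0.09, adjusted p = 1.3e-04). The higher count was 2 without KLHL6-KO replicate 1 or WT replicate 2 and 3 without KLHL6-KO replicate 2 or WT replicate 1. LIPG, a secreted lipase of the endothelial type, was at 179, 200.1 and 200.1 counts in WT and 421, 436 and 419 in KLHL6-KO libraries (1.13 ± 0.08, adjusted p = 5.2e-12; change from 0 h 0.88 ± 0.11, adjusted p = 2.7e-06).

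**Figure D3:**
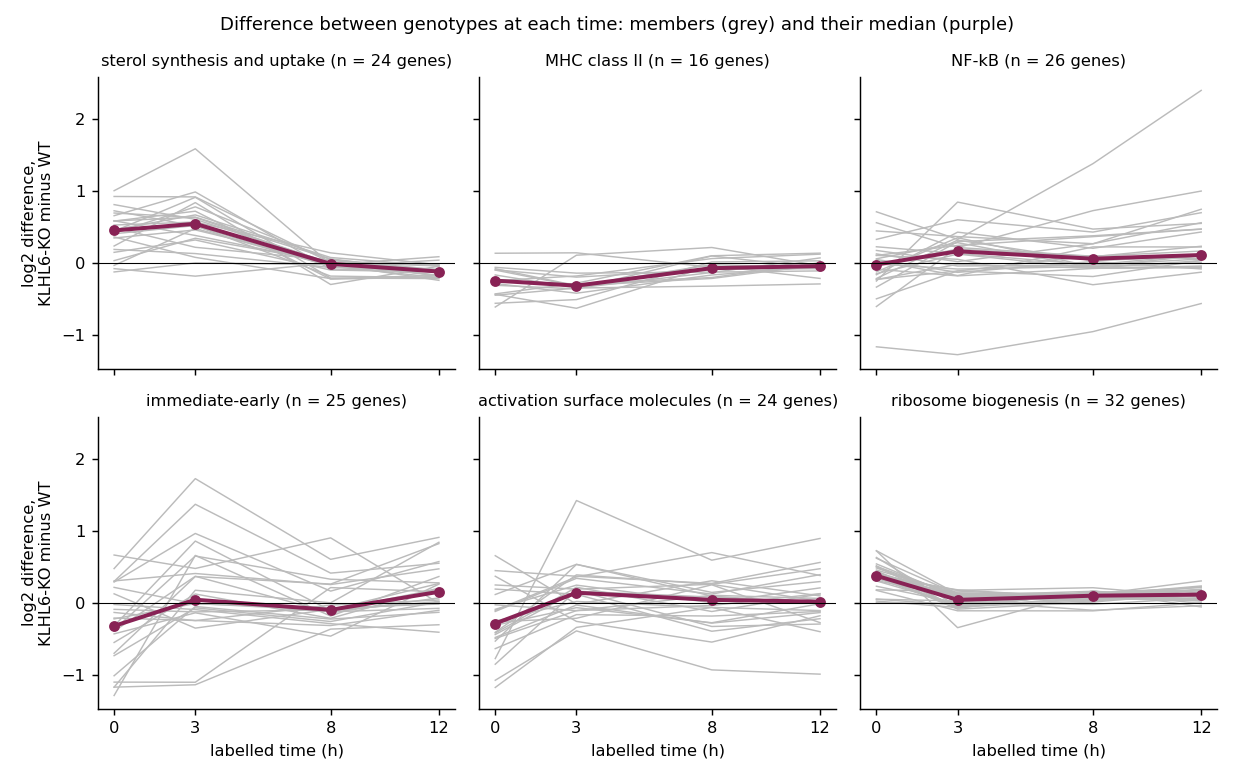
Log2 difference between genotypes (KLHL6-KO minus WT, vertical axis) at the labelled times of 0, 3, 8 and 12 h (horizontal axis), 1 grey line for each measured gene of 6 lists, with the list median in purple. The sterol median is 0.45 and 0.55 at 0 and 3 h and near 0 later, the immediate-early median goes from -0.32 to 0.04, and that of ribosome biogenesis from 0.37 to 0.04.

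Genes of ER folding were higher, 9 of 21 with none lower (median 0.15). HSP90B1, the ER chaperone GRP94, was at 5657, 5386 and 5741 counts in WT and 7411, 7768 and 8056 in KLHL6-KO libraries (0.47 ± 0.05, adjusted p = 1.4e-07), with no overlap. The secreted stress factor MANF (0.45 ± 0.09, adjusted p = 0.0015), the calcium-binding chaperone CALR (0.36 ± 0.08, adjusted p = 0.0034) and the disulfide isomerase PDIA3 (0.27 ± 0.05, adjusted p = 0.0014) followed. At 0 h 14 of the list were higher and 1 lower with a median of 0.30, and 2 were higher at 8 h and at 12 h. Over all genes 13.7%, 3.82%, 2.02% and 1.40% were higher at 0, 3, 8 and 12 h.

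MHC class II genes, through which B cells show peptides to helper T cells, were lower: 11 of 16 measured fell and none rose (all genes: 4.0% and 3.82%), with a median of -0.31. HLA-DMB, a chain of the editor that loads peptides, was at 1822, 1998 and 1782 counts in WT and 1088, 1257 and 1286 in KLHL6-KO libraries (-0.63 ± 0.06, adjusted p = 1.6e-08). Its partner HLA-DMA (-0.36 ± 0.06, adjusted p = 7.6e-05) and the modulator HLA-DOA (-0.51 ± 0.06, adjusted p = 2.9e-07) were lower with it. The presenting chains HLA-DRA, at 14315, 14284 and 13709 and 10655, 11110 and 11544 (-0.35 ± 0.06, adjusted p = 6.1e-05), and HLA-DPB1 (-0.42 ± 0.05, adjusted p = 5.4e-07) fell by less than HLA-DMB. Groups did not overlap for any of the 11 called genes, as for 1162 of all 1175 called genes. RFX5, which binds the promoters of the class II genes, was lower (-0.32 ± 0.05, adjusted p = 1.4e-04), whereas the master coactivator CIITA, singled out after its values were seen, was not called at 3902, 4432 and 4078 and 4334, 4729 and 4319.6 (0.11 ± 0.12, adjusted p = 0.64). HLA-DRB1 and HLA-DRB5, both among the 11, are near-identical copies, so each of these calls is uncertain. The count of lower members was 11 at 0 h, 3 at 8 h and 0 at 12 h, where 12.5%, 2.32% and 2.0% of all genes were lower. The change of the difference was called downward for 5 members against each of 8 and 12 h (0.625% and 0.399% of all genes). Class I and interferon genes were mostly uncalled, 2 higher and 2 lower of 16 and 1 lower of 18, the last being OAS3 (-0.62 ± 0.11, adjusted p = 2.4e-04).

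Of 28 glycolysis and hypoxia genes 9 were lower and 1 higher (all genes: 4.0% and 3.82%), with a median of -0.18. PDK1, which keeps pyruvate out of mitochondria, was at 334, 333 and 339 counts in WT and 262, 257 and 231 in KLHL6-KO libraries (-0.42 ± 0.08, adjusted p = 7.3e-04). The phosphofructokinase PFKL (-0.34 ± 0.07, adjusted p = 9.9e-04) and the mitophagy receptors BNIP3 (-0.45 ± 0.10, adjusted p = 0.0024) and BNIP3L (-0.41 ± 0.10, adjusted p = 0.007) were lower. All of these had been lower at 0 h, where 16 members were called lower, against 12.5% of all genes. The glucose transporter SLC2A3 ran the other way at 37.5, 23.9 and 39.2 and 47, 64.9 and 61.4 (0.77 ± 0.14, adjusted p = 3.9e-04), having been lower in KLHL6-KO cells at 0 h (change 1.32 ± 0.20, adjusted p = 3.8e-05). The lower count was 4 without WT replicate 3, 5 without WT replicate 1 or KLHL6-KO replicate 1, and 6 without KLHL6-KO replicate 2 or 3.

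None of 32 ribosome biogenesis factors was called (median 0.04), although 26 had been higher in KLHL6-KO cells at 0 h (median 0.37), where 13.7% of all genes were. For 17 the change of the difference was called downward, against 4.87% of all genes. NOP2, a nucleolar RNA methyltransferase, was at 26.5, 29.6 and 27.6 counts in WT and 44.9, 48 and 48.9 in KLHL6-KO libraries at 0 h and at 73.1, 76.7 and 82.5 and 57.9, 58.5 and 65.1 at 3 h (change -1.07 ± 0.21, adjusted p = 0.0012). None of 32 ribosomal protein genes (29 of them with a positive difference, median 0.09) and 13 mitochondrially encoded genes was called, and 1 of 25 mitotic genes was higher. In a fit of the 6 libraries alone 8 ribosomal protein, 6 mitotic and 3 ribosome biogenesis genes were higher. Of 26 G1/S genes, 1 was higher and 2 lower (all genes at 3 h: 3.82% and 4.0%). SLBP, a histone RNA-binding protein, was among the lower ones (-0.31 ± 0.06, adjusted p = 3.3e-04). The cell cycle inhibitor CDKN1A (p21) was at 322, 316 and 392 in WT and 510.3, 542 and 447 in KLHL6-KO libraries (0.54 ± 0.09, adjusted p = 5.1e-05), and it was lower in KLHL6-KO cells at 8 h (-0.42 ± 0.09; change 0.96 ± 0.12, adjusted p = 5.0e-06). Of 20 p53 targets only CDKN1A was called higher and BTG2 lower, and of 16 BCL2 family genes BCL2L1 was higher (0.27 ± 0.06, adjusted p = 0.0043) and 3 were lower, a count of 0 without WT replicate 2 and of 1 without WT replicate 1 or any 1 KLHL6-KO replicate.

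**Figure D4:**
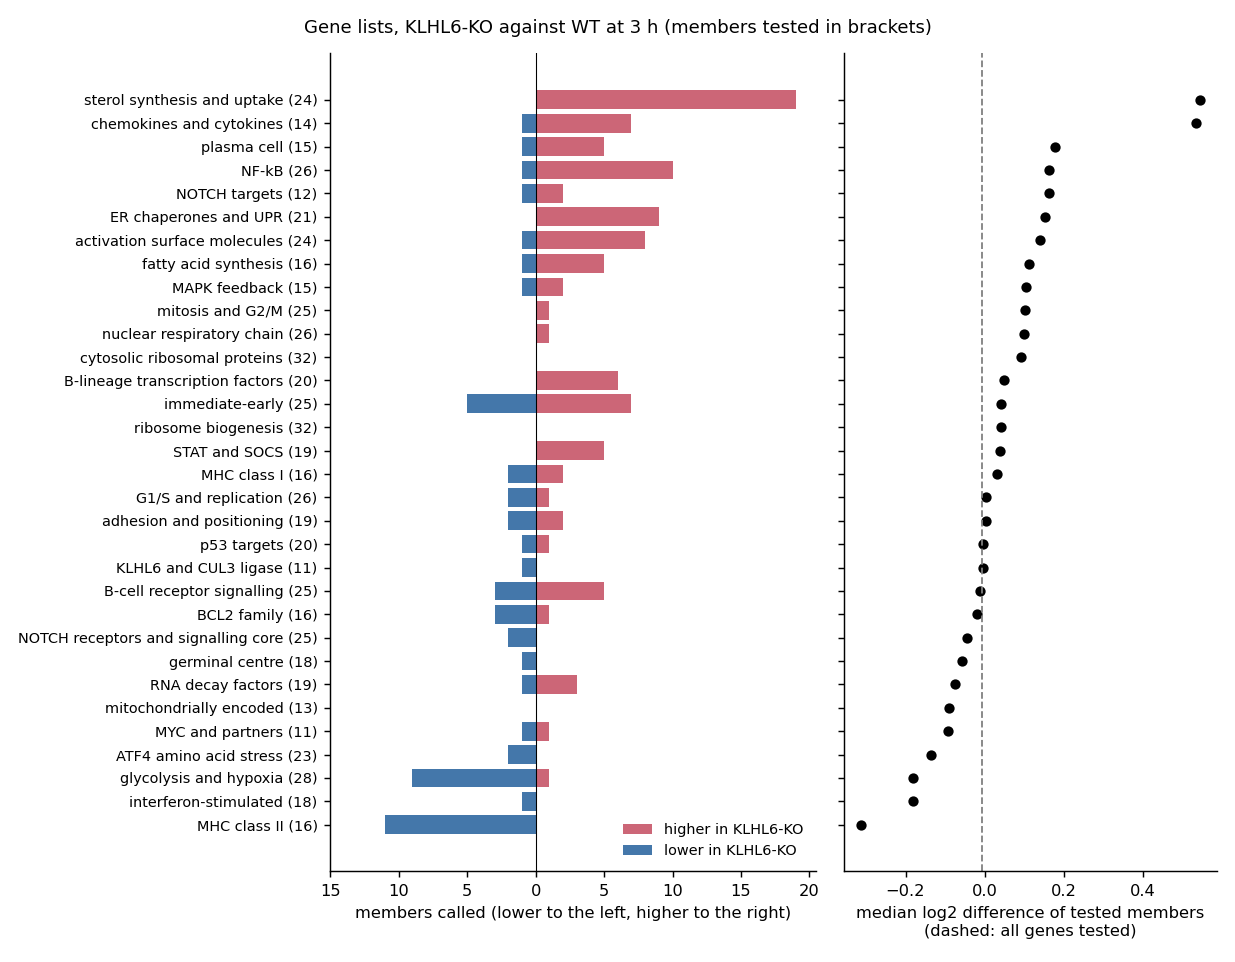
Members of 32 gene lists called higher (red, right) or lower (blue, left) in KLHL6-KO cells at 3 h, beside the median log2 difference of the tested members (black points) and that of all genes tested (dashed line, -0.01). Sterol synthesis with 19 higher and MHC class II with 11 lower stand at the 2 ends.

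The 15 largest rises with a mean of at least 50 counts in the higher group and no overlap also held genes of no list. F5, coagulation factor V, was at 45.2, 50.8 and 40.2 counts in WT and 149, 142 and 139 in KLHL6-KO libraries (1.62 ± 0.18, adjusted p = 1.5e-07). TWIST1, a basic helix-loop-helix repressor, was at 54.8, 43.6 and 54.3 and 131, 126 and 138 (1.34 ± 0.13, adjusted p = 7.1e-09), and its difference at 0 h was not called (-0.06 ± 0.13; change 1.40 ± 0.19, adjusted p = 4.4e-06). ZEB2, a zinc-finger repressor, rose from 95.2, 74.7 and 74.4 to 153, 167 and 171 (1.00 ± 0.13, adjusted p = 7.7e-07). RILPL2, a RILP-like membrane traffic protein, was higher by 0.94 ± 0.09 (adjusted p = 1.5e-09), and the unnamed gene ENSG00000286044 by 1.12 ± 0.16 (adjusted p = 1.2e-05). That the knockout libraries were above all WT libraries for each was a condition of this list and not a result.

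The 15 largest falls were taken by the same limits, so groups without overlap were a condition of that list too. They were led by CKB, the cytosolic creatine kinase (ENSG00000166165, chromosome 14, 103519659 to 103523111). It was at 252, 253 and 245 counts in WT and 72.1, 57.6 and 55.9 in KLHL6-KO libraries, 3.97-fold lower (-1.99 ± 0.12, adjusted p = 2.2e-13). ITGB2, the common chain of the leukocyte integrins, was at 76.9, 73.6 and 78.4 and 19.7, 32.9 and 25.7 (-1.51 ± 0.18, adjusted p = 2.9e-07), and the sialomucin SPN, or CD43, was lower too (-0.78 ± 0.11, adjusted p = 3.0e-06). RIPOR1 (-1.51 ± 0.17, adjusted p = 8.5e-08) and the lipid transporter ABCA2 (-1.30 ± 0.15, adjusted p = 1.4e-07) fell as well. So did the SLAM receptor LY9 (-1.27 ± 0.30, adjusted p = 0.0054) and the TGF-beta docking protein LRRC32 (-1.26 ± 0.19, adjusted p = 2.5e-04). The same held for the protease inhibitor SPINK2 (-1.05 ± 0.12, adjusted p = 1.2e-07), the cathelicidin CAMP (-1.13 ± 0.18, adjusted p = 7.4e-05) and the RNA helicase MOV10 (-1.16 ± 0.21, adjusted p = 2.9e-04). It also held for the phosphodiesterase GDPD5 (-1.10 ± 0.14, adjusted p = 1.6e-06), GLIPR2 (-1.25 ± 0.22, adjusted p = 1.7e-04), ADGRB2 (-1.19 ± 0.20, adjusted p = 1.7e-04) and the pseudogene FER1L4 (-1.22 ± 0.19, adjusted p = 3.5e-05). All of these genes were called lower at 0 h as well: CKB differed by -1.75 ± 0.12 at 0 h and -1.22 ± 0.12 at 12 h, and its change between 0 and 3 h was not called (-0.24 ± 0.17, adjusted p = 0.47).

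Set against the other times, whose libraries are separate, the calls at 3 h overlapped as follows, each overlap given as a share of both lists. Of the 601 genes lower at 3 h, 346 were lower at 0 h (57.6% of these and 18.5% of the 1872 lower at 0 h), 128 at 8 h (21.3%, and 36.7% of 349) and 120 at 12 h (19.97%, and 40% of 300). Of the 574 genes higher, 195 were higher at 0 h (34.0%, and 9.49% of 2055), 98 at 8 h (17.1%, and 32.3% of 303) and 89 at 12 h (15.5%, and 42.4% of 210). In all 58 genes were lower and 27 higher at every time, while 424 (36.1% of those called) were called at 3 h and at no other time. Genes called in opposite directions at 0 and 3 h numbered 106, 54 of them lower at 0 h and higher at 3 h. Across genes the log2 differences at 3 h correlated with r = 0.37 against 0 h, 0.28 against 8 h and 0.31 for 12 h (15032 genes, which are not independent).

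The difference itself changed between 0 and 3 h for 591 genes upward and 732 downward, against 106 and 94 between 8 and 3 h and 103 and 60 between 12 and 3 h. The largest changes were taken among genes with a mean of at least 50 counts in the higher group and no overlap at 3 h. Within these limits the 10 largest upward changes were CD69, EGR1, TNF, TWIST1, SLC2A3, DUSP2, PTPN6, EGR2, SEMA7A and LTA. NRARP, which changed by 1.54, was below 50 counts at 3 h and so was left out. Downward, NME2, a nucleoside diphosphate kinase, went from 19, 23.5 and 31.5 in WT and 43.1, 42.2 and 45 in KLHL6-KO libraries at 0 h to 99, 84 and 93.5 and 66.7, 74.1 and 66 at 3 h (change -1.20 ± 0.23, adjusted p = 8.6e-04), though it shares exons with a readthrough transcript and its value is uncertain. SRSF6P2, a processed pseudogene of the splicing factor SRSF6, was higher in KLHL6-KO cells at 0 h and lower at 3 h (-0.58 ± 0.09, adjusted p = 6.1e-05; change -1.09 ± 0.13, adjusted p = 9.7e-07), and its reads cannot be told from those of SRSF6 with certainty.

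**Figure D5:**
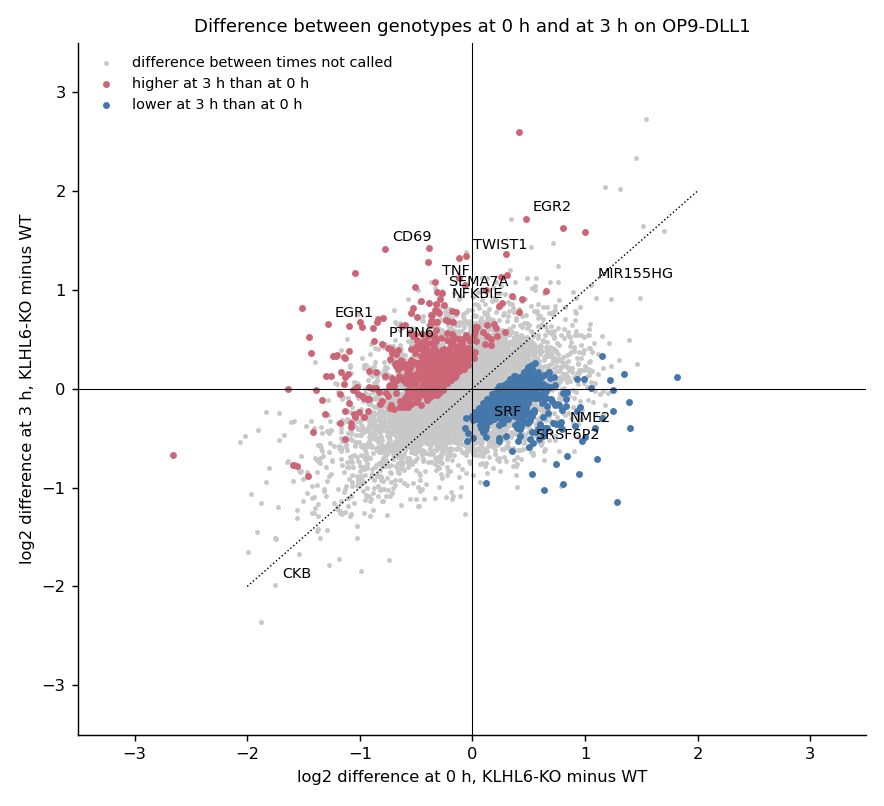
Log2 difference between genotypes at 3 h (vertical axis) against that at 0 h (horizontal axis), 1 point for each of 15032 genes, with those whose difference changed upward (591, red) or downward (732, blue) coloured and the line of equal differences dotted. CD69 and EGR1 sit at upper left, lower at 0 h and higher at 3 h, and CKB and MIR155HG lie near the dotted line.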

How the data were processed

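The submitters' processing notes name STAR, SAMtools, DESeq2 and GRCh38, without versions. The counter, strand setting and annotation of the authors were not stated in the sources used here. RNA was poly(A)-selected for a directional kit, per the labels' protocols. The deposited signal was taken as gene counts over 1 scale factor a library, made by the authors before deposit: 100% of values are whole multiples of 1 step within 0.02 steps, which gave back the reads. Of 60558 Ensembl identifiers, 60261 matched a current symbol, 276 GENCODE 29 alone and 21 neither.

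limma 3.58.1 (R 4.3.3, trend and robust) was fitted on log2(value + 2) with 1 coefficient for each of 8 groups over 24 libraries, for genes at 10 or more in at least 3 libraries. The change of a difference is the contrast of 2 genotype differences. All adjusted p-values in the text are from limma unless another tool is named. Alternatives were pseudocounts of 0.5 and 8, no filter, TMM scaling with and without mitochondrial genes, edgeR 4.0.16 and DESeq2 1.42.0 on recovered reads, the compared groups alone, a replicate block and each library left out. The fit was tested on simulated data. Gene lists are described by counts, without a test. Named genes are KLHL6, members of the ligase, NOTCH and RNA decay lists, up to 6 called members in each direction of other lists (any called for NF-kB, immediate-early, MAPK and cytokine genes), the 15 largest changes in each direction and the 10 largest changes from 0 h. Both sets of largest changes were limited to called genes with a mean of at least 50 counts in the higher group and no overlap at 3 h. Members and lists were chosen with earlier results of these data known. Some genes that the rule names are not reported here.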

Additional observations from a re-analysis of the deposited data

Results flagged for a closer look

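The difference between KLHL6-KO and WT cells at 3 h was set against that at each other time, by the limma contrast of both differences (Benjamini-Hochberg adjusted p under 0.05, 3 libraries in each group). It differed for 1323 genes against 0 h, for 200 against 8 h and for 163 against 12 h. The values below are log2 differences at 3 h minus those at the other time.

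Against 0 h, the change was upward for the receptor-induced genes EGR1 by 1.94, EGR2 by 1.25, EGR3 by 1.07, NR4A1 by 1.02, ZFP36 by 0.76 and DUSP2 by 1.27. Of NF-kB genes it was 1.10 for NFKBIE, 0.59 for ICAM1, 0.47 for NFKB2, 0.63 for TNFAIP3 and 0.82 for TRAF1. For the cytokines TNF and LTA it was 1.41 and 1.10. Of surface and receptor signalling genes it was 2.19 for CD69, 1.06 for CD274, 1.24 for SEMA7A and 1.26 for PTPN6. The NOTCH targets HES1 and NRARP changed by 0.49 and 1.54. FOXP1 changed by 0.84, TWIST1 by 1.40, SLC2A3 by 1.32, CDKN1A by 0.60 and LIPG by 0.88.

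The change from 0 h was downward for KEAP1 (-0.49), POFUT1 (-0.42), DTX1 (-0.34), SRF (-0.48), ZC3H12D (-0.53), NOP2 (-1.07), NME2 (-1.20) and the pseudogene SRSF6P2 (-1.09).

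Against 8 h, SQLE changed by 1.07, INSIG1 by 1.14 and CDKN1A by 0.96. Against 12 h, SQLE changed by 1.10 and INSIG1 by 0.88.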

How the results depend on the processing

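Of 108 named genes called at 3 h, 92 kept direction and call under every alternative run, and the others are given in the report with the settings and libraries that ended their calls. RC3H2, which was not called, changed sign between -0.13 and 0.024 when single libraries were left out, and the cause was not tested. At 3 h the counts of genes higher, lower and in either direction were 966, 1067 and 2033 in a fit of the 6 libraries alone. Leaving out 1 library gave 312 to 537 higher, 334 to 499 lower and 646 to 1036 in all. For the change from 0 h, no filter gave 392, 476 and 868 genes, and leaving out 1 library gave 381 to 812, 473 to 989 and 883 to 1801. For the change from 8 h, no filter gave 62 lower, and leaving out 1 library gave 52 to 126, 34 to 108 and 86 to 234. For the change from 12 h, no filter gave 37 lower, and leaving out 1 library gave 62 to 116, 25 to 54 and 87 to 160.0. Over the genes tested, same-numbered libraries of the 2 genotypes at 3 h did not deviate together (correlations of 0.03, -0.04 and 0.06). The summed B-cell markers, however, rose from replicate 1 to 3 in WT (79563, 82111 and 83416 counts) and in KLHL6-KO libraries (73665, 76952 and 78218). Whether the numbers pair the libraries is therefore not known, and the main fit did not use them. With a replicate block the counts were 884, 930 and 1814 at 3 h, 209, 189 and 398 for the change from 8 h, and 201, 125 and 326 for that from 12 h. With the block, NOTCH2 was called at 3 h (adjusted p = 0.0076), as was the change of KLHL6 from 0 h (adjusted p = 2.5e-04), and 3 ribosomal protein, 4 mitotic and 1 ribosome biogenesis genes were higher. Calls were fewer at low levels, 3.88% under a mean of 50 counts.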
